A study of Rattus norvegicus with 16 samples.

Results

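The tachykinin system was followed in rat brain through 4 genes, the peptide precursors Tac1 and Tac3 and the receptors Tacr1 and Tacr3. They were taken by gene symbol from the annotation of the array, where 1 probe set (called a probe below) read each of them, and they are 4 of the 15037 genes with a symbol on the array. The other tachykinin genes on the array, Tac4 and Tacr2, are given only as a comparison of signal.

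The study exposed male Wistar rats, 8 to 10 weeks old, to an anesthetic or its control for 60 min and asked which genes responded in brain nuclei whose activity the anesthetics alter. The sevoflurane rats breathed 2.4% of this volatile anesthetic, and the O2 rats breathed oxygen without it. The propofol rats received this injectable anesthetic at 36 mg/kg/hr after a bolus of 10 mg/kg, and the Intralipos rats received a 10% lipid emulsion, the carrier of propofol, at the same rates. All groups breathed 40% oxygen at 6 L/min. Brains were frozen at once, and regions were taken from stained sections with a laser: the medial (MHb) and the lateral habenula (LHb) and, from the hindbrain, the solitary nucleus (Sol) and the medial nucleus of the vestibular complex (MVe). Each of the 4 regions under each of the 4 treatments was measured on 1 array, which makes 16 arrays. Signals are on the log2 scale, on which a difference of 1 is a doubling; the scale is not stated in the sources used here and was taken from the values, so each fold below rests on it.

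Tachykinins are short neuropeptides released with fast transmitters, and they act through receptors coupled to the Gq protein, which raises calcium in the receiving cell. Tac1 encodes substance P and neurokinin A, and Tac3 encodes neurokinin B (the same gene is called Tac2 in mice). Tacr1 encodes the neurokinin 1 receptor, which prefers substance P, and Tacr3 encodes the neurokinin 3 receptor, which prefers neurokinin B. Medial habenula neurons that make substance P send their axons to the interpeduncular nucleus, and in the solitary nucleus substance P is released by vagal afferents in circuits of vomiting and cardiovascular reflexes. A peptide precursor mRNA is found in the cell body, whereas the peptide acts where the axon ends, so the mRNA of ligand and receptor need not lie in the same nucleus.

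Because both receptor genes differed several-fold between the regions, the DNA before their starts is shown. RefSeq (build GRCr8) gave a promoter window for 3 of the 4 genes. The Tac1 window lies inside the span of a longer annotated transcript and is not printed, and Tac3 is named only. The windows below hold the 250 bases before the start of Tacr1 (chr4:116478367-116478616, plus strand) and of Tacr3 (chr2:225940247-225940496, plus strand), written 5′ to 3′. Capitals mark the CRE core, the first letters of the element bound by CREB family factors (TGACG on either strand, read as CGTCA on the other), and the TATA box (TATAAA, on the given strand only).
Tacr1: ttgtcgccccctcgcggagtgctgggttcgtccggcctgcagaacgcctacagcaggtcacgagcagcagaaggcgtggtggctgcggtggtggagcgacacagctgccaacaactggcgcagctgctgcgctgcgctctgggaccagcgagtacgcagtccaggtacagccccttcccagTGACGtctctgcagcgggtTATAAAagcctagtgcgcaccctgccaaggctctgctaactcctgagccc
Tacr3: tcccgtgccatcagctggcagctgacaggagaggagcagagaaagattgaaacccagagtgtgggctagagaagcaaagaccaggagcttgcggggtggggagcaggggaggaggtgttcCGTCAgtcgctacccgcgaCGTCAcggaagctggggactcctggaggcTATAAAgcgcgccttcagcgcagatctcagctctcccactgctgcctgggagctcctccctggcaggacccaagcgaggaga
The Tacr1 window holds 1 CRE core, at -69 counted back from the start, and 1 TATA box, at -50. The Tacr3 window holds 2 CRE cores, at -130 and -111, and 1 TATA box, at -82. Of 33469 rat promoter windows of the same length, 18.2% hold a CRE core and 8.06% a TATA box. The E-box (CANNTG, either strand), which 65.5% of windows hold, was found 3 times before Tacr1 and 2 times before Tacr3. The full CRE (TGACGTCA, present in 1.59% of windows) and the AP-1 site (TGANTCA, present in 6.34%) were found in neither; the CRE cores do not overlap the TATA boxes. These are matches of letters and were set against no binding data.

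The depth of an array measurement is limited by its background. The 23 background control probes on each array, which match no rat sequence, had a median signal of 5.49 to 5.94 and a highest signal of 6.55 to 6.94. The mean over all probes was 7.20 to 7.21 in the sevoflurane and O2 arrays and 6.97 to 6.99 in the propofol and Intralipos arrays. The arrays thus form 2 sets, and each anesthetic was compared with its control inside a set. Both Tacr2, the receptor that prefers neurokinin A (3.42 to 4.30), and Tac4, the precursor of hemokinin (2.83 to 3.58), lay at or below the highest background control on 16 of 16 arrays. Markers fitted the region labels to different degrees. All 8 measured medial habenula markers passed the test in MHb minus LHb, each higher in MHb. The mean of Chrna5, however, lay below the highest background controls in both nuclei, so its call cannot be read as a regional difference. Of 5 lateral habenula markers, 3 were lower and 2 higher in MHb than in LHb. The mean of 10 solitary nucleus markers was 6.83 to 7.81 in Sol and 3.93 to 4.16 in the other regions, and 6 genes of the area postrema, which borders it, averaged 6.44 to 7.06 in Sol and 4.29 to 5.05 elsewhere. Calcr and Glp1r belong to both lists, so these means are not separate readings. For MVe no marker of its own was listed; its 4 inhibitory neuron markers averaged 13.33 to 13.82, against 11.50 to 12.21 in Sol.

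The 4 genes differed between regions past the test, and none did between an anesthetic and its control. Tac1, Tac3 and Tacr1 had their highest signal in MHb, and Tacr3 had its highest in Sol. In MVe, Tac1 and Tac3 did not exceed the background controls on any array, and Tacr1 and Tacr3 were near them.

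Tac1 was strongest in MHb, where it read 14.04 with sevoflurane, 14.49 with O2, 14.74 with propofol and 14.57 with Intralipos. In LHb it read 10.96 with sevoflurane, 11.35 with O2, 11.74 with propofol and 10.66 with Intralipos. In Sol it read 10.81 with sevoflurane, 11.56 with O2, 11.88 with propofol and 12.16 with Intralipos. LHb and Sol overlapped, and every MHb array lay above every array of the other regions. In MVe it read 6.22 with sevoflurane, 5.64 with O2, 5.27 with propofol and 4.66 with Intralipos, at or below the highest background control on 4 of 4 arrays. The order was therefore MHb (mean 14.46 ± 0.30, SD, n = 4), then Sol (11.60 ± 0.58) and LHb (11.18 ± 0.47), which did not differ beyond their spread, and then MVe (5.45 ± 0.66).

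Tac3, the neurokinin B precursor, was strong in the habenula and at background in the hindbrain nuclei. In MHb it read 15.96 with sevoflurane, 16.14 with O2, 15.60 with propofol and 15.31 with Intralipos. In LHb it read 11.50 with sevoflurane, 10.94 with O2, 9.86 with propofol and 8.37 with Intralipos. The LHb arrays spread the most of any group of the 4 genes (mean 10.17 ± 1.38, SD, n = 4), yet the lowest of them stayed above all hindbrain arrays and the highest stayed below all MHb arrays. In Sol it read 3.63 with sevoflurane, 3.60 with O2, 3.93 with propofol and 4.01 with Intralipos. In MVe it read 5.32 with sevoflurane, 4.22 with O2, 4.17 with propofol and 3.43 with Intralipos. All 8 hindbrain arrays lay at or below the highest background control, so no order can be read between Sol and MVe. The mean was 15.75 ± 0.37 in MHb, 3.79 ± 0.21 in Sol and 4.28 ± 0.78 in MVe.

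Tacr1, the substance P receptor, followed a shallower gradient. In MHb it read 10.07 with sevoflurane, 9.83 with O2, 9.28 with propofol and 9.46 with Intralipos. In LHb it read 9.39 with sevoflurane, 8.43 with O2, 9.08 with propofol and 8.38 with Intralipos, and the highest LHb array overlapped the lowest MHb array. In Sol it read 7.30 with sevoflurane, 7.77 with O2, 7.86 with propofol and 7.10 with Intralipos. The Sol arrays all lay below the LHb arrays. In MVe it read 7.22 with sevoflurane, 6.96 with O2, 6.25 with propofol and 6.22 with Intralipos, and 2 of the 4 arrays were at or below the highest background control. The means were 9.66 ± 0.36 in MHb, 8.82 ± 0.50 in LHb, 7.51 ± 0.37 in Sol and 6.66 ± 0.50 in MVe (SD, n = 4 each).

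Tacr3, the neurokinin B receptor, had a different order, with Sol first. In MHb it read 9.44 with sevoflurane, 9.52 with O2, 8.92 with propofol and 7.87 with Intralipos. In LHb it read 7.41 with sevoflurane, 7.13 with O2, 6.62 with propofol and 6.51 with Intralipos. The MHb arrays all lay above the LHb arrays, of which 2 of 4 were at or below the highest background control. In Sol it read 10.91 with sevoflurane, 10.79 with O2, 11.27 with propofol and 10.10 with Intralipos, above every array of the other regions. In MVe it read 7.32 with sevoflurane, 6.58 with O2, 6.52 with propofol and 6.29 with Intralipos, and 3 of the 4 arrays were at or below the highest background control. LHb (6.92 ± 0.43) and MVe (6.68 ± 0.45) were neighbours that did not differ beyond their spread, under MHb (8.94 ± 0.76) and Sol (10.77 ± 0.49; SD, n = 4 each). Sol, where the receptor of neurokinin B was brightest, is a region where the neurokinin B precursor Tac3 did not exceed the background controls.

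**Figure D1:**
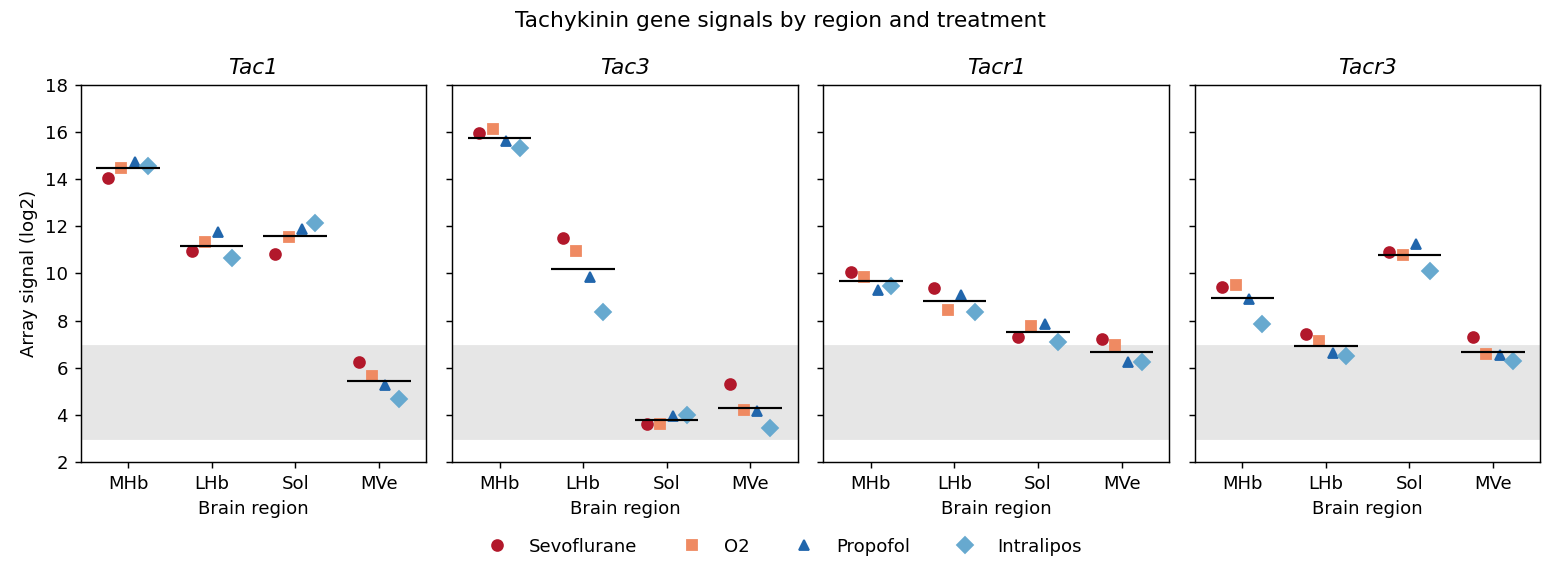
Array signal (log2) of the 4 tachykinin genes in each region, 1 point per array with the shape giving the treatment and a black line at the mean of the 4 arrays. The grey band spans the signals of the background control probes over all arrays (2.97 to 6.94); Tac1 in MVe and Tac3 in Sol and MVe lie inside it, Tac1, Tac3 and Tacr1 are highest in MHb and Tacr3 is highest in Sol.

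Differences between regions were tested with limma in a model with treatment and region as terms, in which the 4 treatments stood in for replicates of a region. All 4 genes passed the test of any region difference (adjusted p from 1.6e-14 for Tac3 to 8.9e-09 for Tacr1), as did 54.1% of all genes. A larger share of cells that make an mRNA and more of it per cell cannot be told apart in tissue samples of this kind.

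Between the habenular nuclei, all 4 genes were higher in MHb than in LHb, in 4 of 4 treatments each, where 28.5% of all genes passed and 14.4% were higher. The difference was 5.58 ± 0.37 (SE, log2) for Tac3, a 47.9-fold change (limma adjusted p = 1.3e-09). It was 3.28 ± 0.31 for Tac1, or 9.74-fold (adjusted p = 1.2e-07). Of the receptors, Tacr3 was higher in MHb by 2.02 ± 0.21 or 4.06-fold (adjusted p = 5.9e-07), with 2 of the 4 LHb arrays above their highest background control. Tacr1 was higher by 0.84 ± 0.23 or 1.79-fold (adjusted p = 0.00828). That call was lost without the LHb O2 array (0.63, adjusted p = 0.0526) and in the propofol and Intralipos arrays alone (0.64, adjusted p = 0.142).

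Between the hindbrain nuclei, 3 of the 4 genes were higher in Sol than in MVe, where 35.2% of all genes passed and 19.3% were higher. Tac1 was higher in Sol by 6.16 ± 0.31 (SE, log2; limma adjusted p = 3.5e-11), and since MVe did not exceed background this is given as at least 28.9-fold, the Sol mean over the mean of the highest background controls of the 4 MVe arrays. All folds written as at least are formed in this way. Tacr3 was higher in Sol by 4.09 ± 0.21, or 17.0-fold (adjusted p = 5.7e-11), with 1 of the 4 MVe arrays above its highest background control. Tacr1 was higher by 0.84 ± 0.23, or 1.79-fold (adjusted p = 0.00659). Its MVe arrays were above their highest background control with sevoflurane and O2 only, and at or below it with propofol and Intralipos. The Tacr1 difference was 0.44 and no longer passed in the sevoflurane and O2 arrays alone (adjusted p = 0.326). Tac3 differed by -0.49 ± 0.37, with a 95% interval of -1.27 to 0.29 (adjusted p = 0.348), and its 8 arrays there carried no signal above background.

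Across brain divisions, MHb was set against Sol (38.7% of all genes passed, 18.9% higher and 19.8% lower in MHb) and against MVe (40.9% passed, 21% higher). LHb was likewise set against Sol (25.3% passed, 11% higher and 14.3% lower in LHb) and against MVe (26.7% passed, 13.7% higher). All 4 genes passed in both MHb comparisons and 3 of 4 in both LHb comparisons. Tac3 was higher in the habenula than in the hindbrain nuclei: at least 501-fold in MHb over Sol and at least 512-fold over MVe, and at least 10.4-fold and 10.7-fold in LHb over the same nuclei (adjusted p from 1.6e-14 to 9.0e-10). Tac1 was 7.25-fold higher in MHb than in Sol (2.86 ± 0.31, adjusted p = 4.3e-07), at least 210-fold higher in MHb than in MVe and at least 21.5-fold higher in LHb than in MVe. Between LHb and Sol it differed by -0.42 (95% interval -1.07 to 0.22, adjusted p = 0.371). Tacr1 was higher in each habenular nucleus than in each hindbrain nucleus, by 1.31 (LHb minus Sol) to 2.99 (MHb minus MVe). Tacr3 alone of the 4 was lower in the habenula than in Sol, by -1.83 ± 0.21 in MHb (adjusted p = 1.2e-06) and -3.85 ± 0.21 in LHb (adjusted p = 1.8e-10). It was higher in MHb than in MVe by 2.26 ± 0.21 (adjusted p = 7.6e-08), and LHb minus MVe was 0.24, with an interval of -0.21 to 0.69 (adjusted p = 0.476).

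Cell type markers differed between the same regions. In MHb minus LHb, 9 of 9 oligodendrocyte markers (median -1.84) and 8 of 9 astrocyte markers (median -2.80) were lower in MHb, and the median of 12 neuron markers was -0.22. In Sol minus MVe, 9 of 9 oligodendrocyte markers were lower (median -3.21) and 9 of 9 microglia markers higher (median 2.01) in Sol. The median of 12 neuron markers was -0.56 there, with 4 above 0 and 8 below. All 4 inhibitory neuron and 11 choroid plexus markers were lower in Sol, and 7 of 9 astrocyte markers were higher. The medians over all genes were 0.04 and -0.02. The part of the cell makeup in the tachykinin differences was not tested.

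The spread of Tac3 over the LHb arrays was set beside the medial habenula markers in the same arrays, because MHb borders LHb. The 8 measured markers differed in MHb minus LHb by 1.24 (Chrna5) to 6.39 (Chrnb3), and Tac3, at 5.58, lay between Chrnb3 and the acetylcholine-making enzyme Chat (5.26). Chat, Slc18a3 and Chrna5 were at or below the highest background control on most or all LHb arrays, so the rank of Tac3 against them cannot be read. The MHb mean of Chrna5 also lay below the highest background controls, so its 1.24 is no measured difference. The mean of the 8 markers was 9.30 with sevoflurane, 9.03 with O2, 8.69 with propofol and 8.66 with Intralipos in LHb, the order Tac3 has there. That order runs across both array sets, whose mean signals differ. Inside a set, sevoflurane minus O2 was 0.56 for Tac3 and 0.27 for the mean of the markers. Propofol minus Intralipos was 1.49 for Tac3 and 0.03 for the mean of the markers, of which some were higher and some lower with propofol. That mean includes Chat, Slc18a3 and Chrna5, which were at background on both arrays of this pair. Over all arrays their mean was 13.12 to 13.40 in MHb, 8.66 to 9.30 in LHb, 8.18 to 8.39 in Sol and 6.33 to 6.62 in MVe. Single markers did not all share that order: 1 of the 8 had it. Chat itself read 6.70, 6.43, 5.77 and 6.28 in these LHb arrays, at or below the highest background control on 3 of the 4 (all but sevoflurane), while the nicotinic receptor subunit Chrna3 read 15.52, 14.94, 14.82 and 14.18 in the same order of treatments. The part of neighbouring MHb tissue in the LHb signal of Tac3 was not tested.

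**Figure D2:**
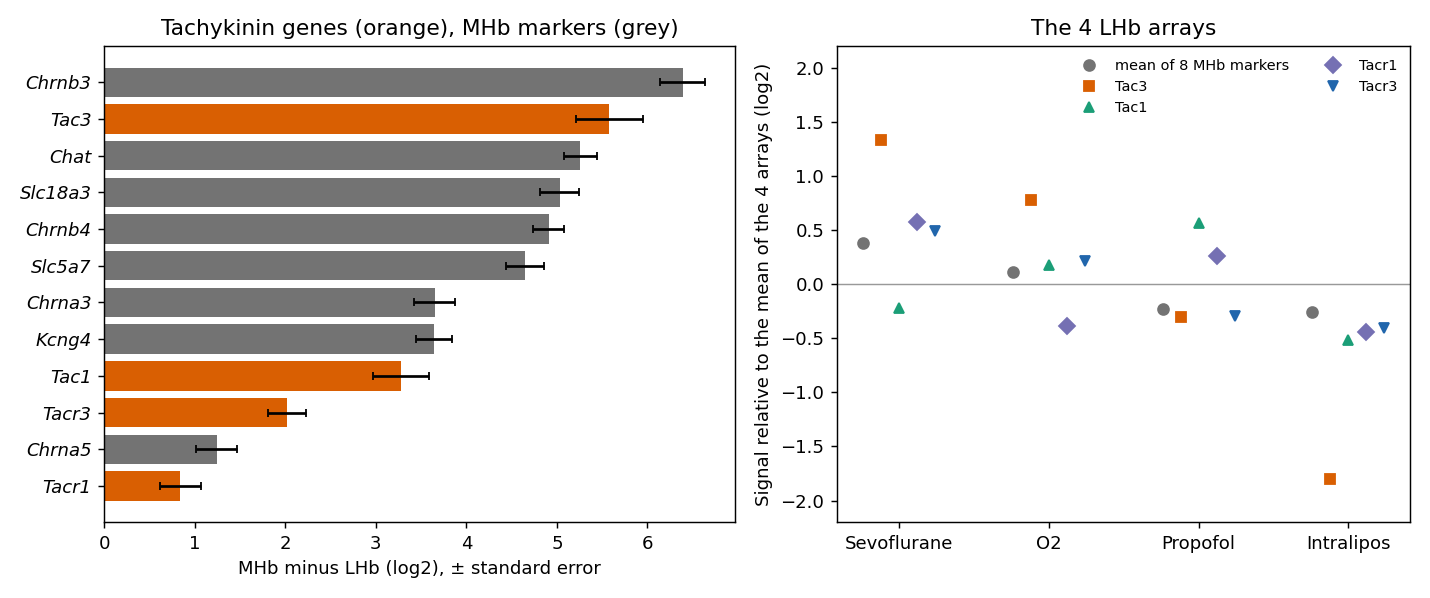
Left, fitted difference MHb minus LHb (log2, bars start at 0, lines are ± 1 standard error) for the 4 tachykinin genes in orange and the 8 measured medial habenula markers in grey. The bar of Tac3 (5.58) is shorter than that of Chrnb3 (6.39) only. Chat, Slc18a3 and Chrna5 were at background on most or all LHb arrays, so their bars are no exact differences. The MHb mean of Chrna5 also lay below the highest background controls, so its bar shows no measured difference. Right, signal of each gene in the 4 LHb arrays relative to its own mean over them (log2), with the mean of the 8 markers as grey circles; Tac3 runs from the highest value with sevoflurane to the lowest with Intralipos.

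Sevoflurane was compared with O2 to ask whether the anesthetic changed the genes. None of the 4 passed the test with limma, and none had an unadjusted p under 0.05; of all genes, 0% passed after adjustment and 4.99% had an unadjusted p under 0.05. Tac1 was lower with sevoflurane in MHb (-0.44), LHb (-0.39) and Sol (-0.75) and higher in MVe (0.59), where it was at background. In the same Sol pair the mean of the choroid plexus markers differed by -0.86, that of the inhibitory neuron markers by -0.45, that of the Hox genes by -0.44 and that of the solitary nucleus markers by -0.28, and their part in the Tac1 value was not tested. The fitted difference was -0.25 ± 0.31 (SE, log2), with a 95% interval of -0.90 to 0.40 (adjusted p = 0.989). Within a region each such difference rests on 1 array against 1 array and has no test. Tac3 differed by -0.19 in MHb, 0.56 in LHb, 0.02 in Sol and 1.10 in MVe, and Sol and MVe were at background. Its fitted difference was 0.37 ± 0.37, with an interval of -0.41 to 1.16. Tacr1 differed by 0.23, 0.96, -0.47 and 0.25 in MHb, LHb, Sol and MVe, and its fitted difference was 0.24 ± 0.23 with an interval of -0.23 to 0.72. The signs of Tac3 and Tacr1 thus differed between regions with signal above background. That of Tac1 differed only in MVe, where it was at background, and its fitted difference includes that region. Tacr3 differed by -0.08, 0.29, 0.12 and 0.74 in the same regions, and its fitted difference was 0.26 ± 0.21 with an interval of -0.18 to 0.71.

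Propofol was compared with Intralipos in the same way. None of the 4 genes passed after adjustment, as 0.02% of all genes did, and 1 of them, Tacr3, had an unadjusted p under 0.05, as 6.92% of all genes did. Tacr3 differed by 1.05 in MHb, 0.11 in LHb, 1.17 in Sol and 0.23 in MVe, so that it was higher with propofol in 4 of 4 regions. In LHb and in MVe, however, both arrays of the pair lay at or below their highest background control. Only the MHb and Sol pairs thus carried signal above background. The fitted difference was 0.64 ± 0.21 (SE, log2), or 1.56-fold, with a 95% interval of 0.19 to 1.09 (limma adjusted p = 0.64). The Intralipos arrays were the lowest of the 4 treatments in all 4 regions for Tacr3. That ranking crosses the array sets, and the mean over all probes was lower in the propofol and Intralipos set (6.97 to 6.99, against 7.20 to 7.21). In the Sol pair, where Tacr3 differed the most, the mean of the solitary nucleus markers was also higher with propofol than with Intralipos (by 0.48), as was that of 6 hindbrain Hox genes (by 0.79) and of 11 choroid plexus markers (by 1.26). In the MHb pair the medial habenula markers differed by 0.17. The part of such sampling differences in the Tacr3 value was not tested.

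The other 3 genes had intervals that include 0. Tac3 differed by 0.29 in MHb, 1.49 in LHb, -0.08 in Sol and 0.74 in MVe, and its fitted difference was 0.61 ± 0.37 with an interval of -0.17 to 1.39 (adjusted p = 0.811). The difference in LHb lay above the 95th percentile of all genes in that pair of arrays (0.63), while the mean of the medial habenula markers differed by 0.03 there. That mean joins markers that went opposite ways. Chrnb4 (9.95 with propofol, 8.58 with Intralipos), Chrna3 and Slc5a7 were higher with propofol. Chrnb3 (8.77 with propofol, 9.63 with Intralipos) and Kcng4 (7.43 and 7.66) were lower. Chat, Slc18a3 and Chrna5 were at or below the highest background control on both arrays, so their signs carry no meaning, yet the mean includes them. Tac1 differed by 0.17 in MHb, 1.07 in LHb, -0.28 in Sol and 0.61 in MVe, and its fitted difference was 0.39 ± 0.31 with an interval of -0.25 to 1.04 (adjusted p = 0.865). Tacr1 differed by -0.18, 0.69, 0.76 and 0.03 in MHb, LHb, Sol and MVe, with a fitted difference of 0.33 ± 0.23 and an interval of -0.15 to 0.80 (adjusted p = 0.838). Over the 16 region values of the 4 genes, 7 lay outside the 5th to 95th percentile of all genes in their pair with propofol, all above it. With sevoflurane 3 of 16 did, and 10% of all genes do so by construction. The 16 values come from the same 4 pairs of arrays and are not independent: Tac1, Tac3 and Tacr1 in the LHb pair are among the 7. Both counts also include Tac3 in MVe (0.74 with propofol and 1.10 with sevoflurane), where it was at background. No enrichment can be read from these counts.

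**Figure D3:**
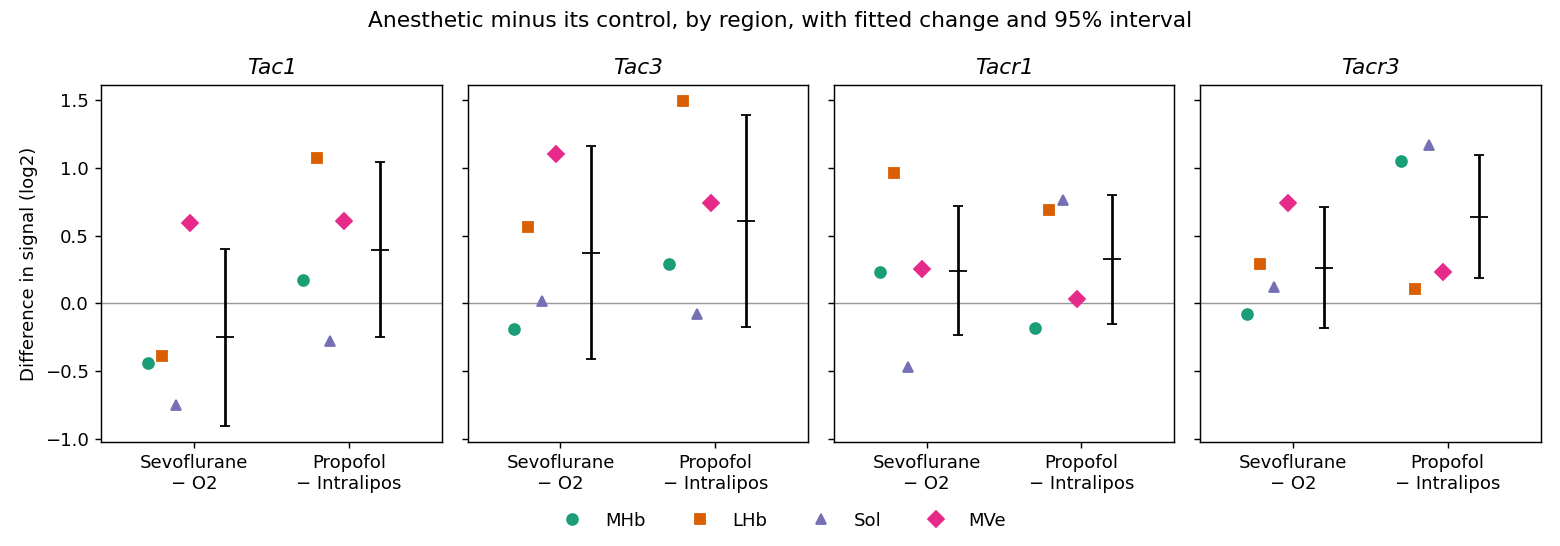
Difference in signal (log2) of each anesthetic minus its own control, 1 point per region, for the 4 tachykinin genes; the black tick and bar give the fitted difference and its 95% interval. The intervals of 7 of the 8 fitted differences include 0, and that of Tacr3 with propofol runs from 0.19 to 1.09.

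The effects of both anesthetics, each against its own control, were compared by the test of their difference. None of the 4 genes passed or had an unadjusted p under 0.05, and 0.0133% of all genes did; 5.01% of all genes had an unadjusted p under 0.05. The sevoflurane effect minus the propofol effect was -0.64 ± 0.43 for Tac1 (95% interval -1.56 to 0.27, adjusted p = 0.994), negative in 4 of 4 regions. In MVe, where Tac1 was at background, both effects were nearly equal (0.59 with sevoflurane and 0.61 with propofol). The difference of the effects was -0.24 ± 0.53 for Tac3, -0.08 ± 0.32 for Tacr1 and -0.38 ± 0.30 for Tacr3. The effects were also compared between the habenular and the hindbrain nuclei by an interaction term. None of the 4 genes passed with either anesthetic, as 0% of all genes did; 5.34% of all genes had an unadjusted p under 0.05 with sevoflurane and 5.43% with propofol. None of these values of the 4 genes had an unadjusted p under 0.05, and the largest relative to its error was that of Tacr1 with sevoflurane, 0.71 ± 0.46 (adjusted p = 0.953).

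Genes that make, break down and relay tachykinins were described by lists. Peptide precursors are processed to active peptides by convertases and amidated in secretory granules, and 9 of 10 listed genes of this kind were measured. With propofol none passed the test, with 9 of 9 above 0 and a median difference of 0.20. Over all genes the median was 0.01, and 7860 of 15037 were above 0. Some marker lists were also one-sided with propofol. Above 0 were 6 of 6 hindbrain Hox genes (median 0.21), 10 of 11 choroid plexus markers (0.47) and 0 of 9 astrocyte markers (-0.16). The granule protein Chga (0.67 ± 0.20, adjusted p = 0.623) and the convertase Pcsk2 (0.47 ± 0.15, adjusted p = 0.64) had the largest values. Of 7 measured peptidases that can degrade tachykinins none passed, with 7 of 7 above 0 and a median of 0.08. Among them Dpp4 and Anpep (0.00) were at or below the highest background control on every array, so their signs carry no meaning. None of 12 Gq signalling genes (median -0.01) and none of 8 receptor desensitisation genes (median -0.13) passed either. The Gq signalling genes Plcb2, Plcb3 and Itpr3 were likewise at or below the highest background control on every array. With sevoflurane none passed in any of these 4 lists, and their medians were 0.02, 0.00, 0.03 and 0.04 in the same order, against 0.01 over all genes. Above 0 were 5 of 9, 4 of 7, 7 of 12 and 5 of 8.

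Between MHb and LHb, where the tachykinin genes were all higher in MHb, the lists went both ways. Over all genes 28.5% passed in this comparison, 14.4% higher, which the counts below are to be read against. In peptide processing 3 of 9 genes were higher and 2 lower in MHb (median 0.05, against 0.04 over all genes): Pcsk2, the convertase of neuroendocrine granules, was higher by 2.33 ± 0.15 (adjusted p = 8.4e-10), and the amidating enzyme Pam, which finishes substance P and neurokinin peptides, by 0.67 ± 0.14 (adjusted p = 9.7e-04). Chga was lower by -5.52 ± 0.20 (adjusted p = 7.4e-13). Among the 7 peptidases 2 were higher and 2 lower (median 0.00), with Ece1, which breaks down internalised substance P, higher by 1.11 ± 0.19 (adjusted p = 2.0e-04) and Ece2 lower by -0.71 ± 0.21 (adjusted p = 0.0146). The other lower call, Anpep (-0.59 ± 0.20, adjusted p = 0.0366), was at background on every array of both nuclei and cannot be read as a regional difference. Mme, or neprilysin, the main cell surface enzyme against substance P, differed by -0.12 ± 0.24 (adjusted p = 0.766). In Gq signalling 3 of 12 were higher and 4 lower in MHb (median -0.13). The phospholipase Plcb1 was lower in MHb (adjusted p = 1.6e-11); its 4 MHb arrays were at or below the highest background control, so LHb is given as at least 4.14-fold higher. Also lower were Rgs2, which shortens Gq signals (-3.63 ± 0.16, adjusted p = 4.9e-12), and the Gq subunit gene Gnaq (-1.83 ± 0.16, adjusted p = 4.3e-08), while the kinase Prkcb was higher (1.36 ± 0.14, adjusted p = 3.6e-07). Of the 8 desensitisation genes 3 were higher and 1 lower (median 0.34), with arrestin Arrb1 lower by -2.38 ± 0.17 (adjusted p = 4.4e-09) and Arrb2 higher by 0.86 ± 0.17 (adjusted p = 7.7e-04).

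Between Sol and MVe the lists again went both ways. Over all genes 35.2% passed here, 19.3% higher. In peptide processing 4 of 9 genes were higher and 2 lower in Sol (median 0.38, against -0.02 over all genes), with Pam higher by 2.52 ± 0.14 (adjusted p = 9.3e-11) and Chga lower by -1.50 ± 0.20 (adjusted p = 1.1e-05). Of the 7 peptidases 2 were higher and 2 lower (median -0.22): neprilysin, Mme, was lower in Sol by -3.62 ± 0.24 (adjusted p = 1.3e-09), with a mean of 6.05 ± 0.67 in Sol, against 9.67 ± 0.26 in MVe (SD, n = 4 each). Ece1 was higher in Sol by 1.92 ± 0.19 (adjusted p = 2.9e-07). Mme was at or below the highest background control on 3 of the 4 Sol arrays, in the hindbrain nucleus where Tac1, Tacr1 and Tacr3 were higher. In Gq signalling 5 of 12 were higher and 3 lower (median 0.00), with Rgs4, a brake on Gq signals, higher by 2.34 ± 0.19 (adjusted p = 1.7e-08), and Gnaq higher by 0.96 ± 0.16 (adjusted p = 9.7e-05). Of the 8 desensitisation genes 1 was higher and 2 lower (median -0.14), with Arrb1 higher by 0.80 ± 0.17 (adjusted p = 0.00132).

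**Figure D4:**
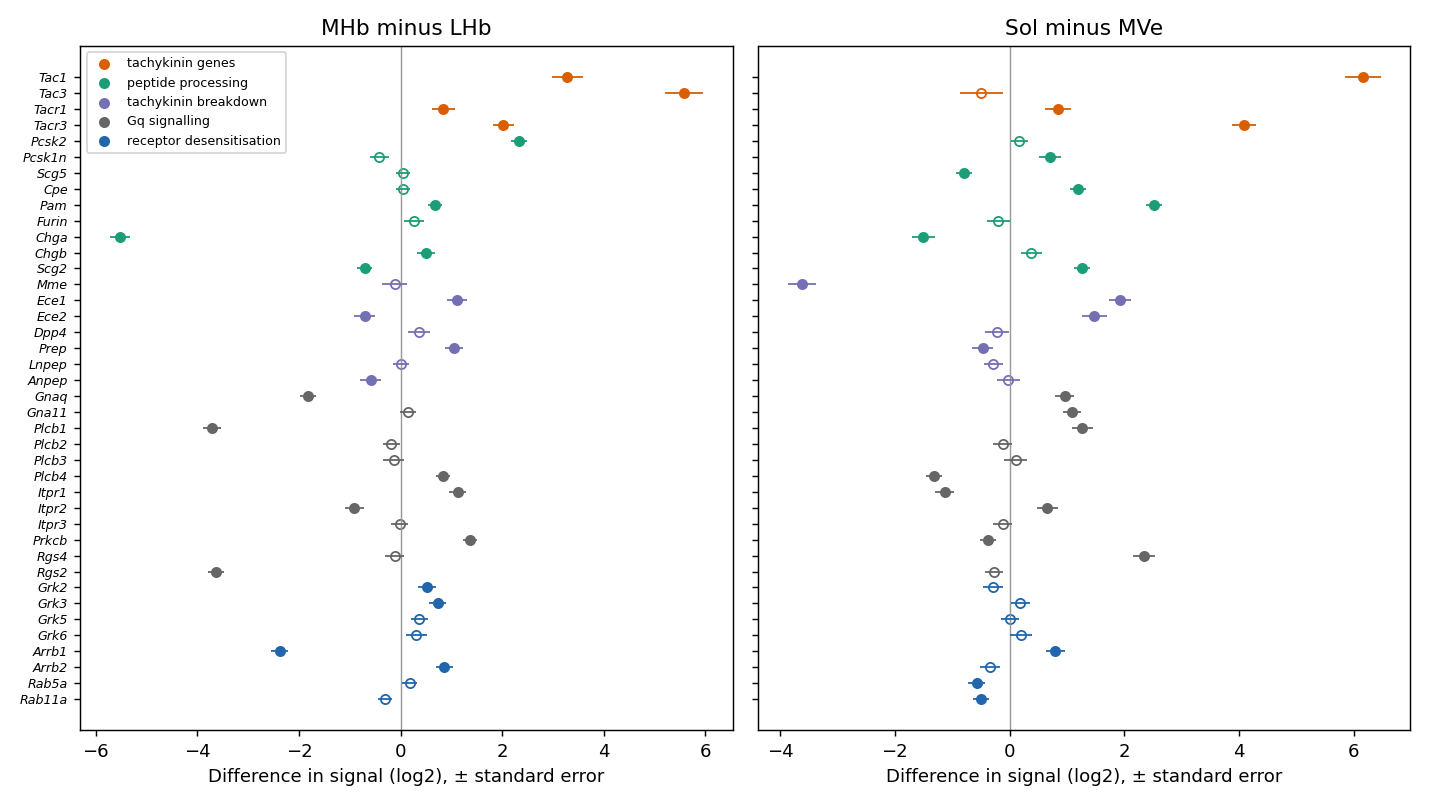
Fitted difference (log2, lines are ± 1 standard error) of MHb minus LHb on the left and Sol minus MVe on the right for the 4 tachykinin genes in orange and the measured genes of 4 related lists in other colours; filled points passed the test and open points did not. Plcb1 in MHb is at background, so its point is no exact difference. Dpp4, Anpep, Plcb2, Plcb3 and Itpr3 are at background in every region, so their points, filled or open, show no measured difference. The tachykinin genes sit right of 0 on the left side, while the lists hold genes on both sides, such as Pcsk2 (2.33) and Chga (-5.52).

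Genes with the most similar pattern were found by Pearson's r over the 16 arrays, after each value was taken relative to the mean of its treatment. The arrays of a region share tissue, so r mostly reflects the 4 region levels, and it is given as a description. For Tac1 they were Cdk5r1 (0.992), Syt10 (0.992), Trhde (0.991), Maoa (0.990) and Ppfia2 (0.989). For Tac3 they were Kctd8 and Kcnma1 (0.997 each), Chrnb3 (0.994), Syt9 (0.993) and Etv1 (0.992), among them Chrnb3, one of the medial habenula markers above. For Tacr1 they were Cnih3 (0.989), Matr3 (0.977), Mybl1 (0.976), Gria1 (0.976) and Triqk (0.973), and for Tacr3 Mtmr9 (0.974), Terf2ip (0.973), Lgi1 (0.969), Mmd (0.969) and Grn (0.967). No gene stood in more than 1 of these groups of 5. Among the tachykinin genes themselves r was 0.92 for Tac3 with Tacr1 and 0.86 for Tac1 with Tacr1. The ligand and receptor pair of neurokinin B, Tac3 and Tacr3, had r = -0.07.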

How the data were processed

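Gene expression was measured on 16 Affymetrix arrays, 1 per region and treatment, from biotin-labelled cDNA made from 100 ng of total RNA, per the labels' protocols. Each probe set has 1 deposited log2 value per array. The submitters' processing notes name Affymetrix Expression Console 1.3.0 for the authors' normalization. No source used here names the summarization or the genome build, and the log2 scale was read from the values. Of 24834 probe sets, 94 were controls, 15049 had 1 gene symbol in the platform annotation, 0 had several and 9691 had none here. The brightest probe of a gene was kept, which left 15037 genes, with no filter on dim genes.

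Treatment and region entered an additive linear model of all 16 arrays in limma 3.58.1 (R 4.3.3; lmFit, then eBayes), with two-sided tests and 9 residual degrees of freedom. Benjamini-Hochberg adjustment ran over the 15037 genes, and calls needed an adjusted p under 0.05. The interaction fit had 6 residual degrees of freedom. The labels do not tie regions to single rats or say how many rats an array holds, so p-values may be too small and measure only the spread between these arrays. Errors are moderated standard errors unless named SD. The scripts were tested on simulated data.

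The 4 genes, the gene lists and the tests were chosen with earlier results of these data known. The 4 genes were named in each comparison, with up to 4 genes of largest value from a described list and the 5 genes with the highest r with each tachykinin gene. Levels were compared only within 1 probe, never between genes. Alternatives were other probes per gene, all probes that are not controls, a filter on dim genes, median centring, quantile normalization, another variance estimate, each array set alone, region within array set as a block, and leaving out each array in turn. Promoter windows came from RefSeq.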

Additional observations from a re-analysis of the deposited data

How the results depend on the processing

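The number of tachykinin genes past the threshold in each comparison was within 1.5 times of the reported one under all other settings (102 values) and with each array left out (192 values). Since 1 probe read each tachykinin gene, the settings on probes could not change its signal, and their values among these counts carry little weight. For MHb minus LHb it was 3 to 4, since Tacr1 lost its call as given above; elsewhere it did not change. Among the single values, Tac3 in Sol minus MVe, where all arrays were at background, was 0.17 in the propofol and Intralipos arrays alone (adjusted p = 0.777) and -1.15 in the sevoflurane and O2 arrays alone (adjusted p = 0.0173); the cause was not tested. Under the other settings 368 values kept their direction and side of the threshold, and both Tacr1 calls that did not are given above. With 1 array left out, differences without a call crossed 0 for Tac1 with sevoflurane (-0.67 to 0.03), for the sevoflurane effect minus the propofol effect of Tac3 (-0.65 to 0.24) and Tacr1 (-0.29 to 0.16), and for the habenula effect minus the hindbrain effect. That range was -1.38 to 0.71 for Tac1, -1.18 to 0.43 for Tac3 and -0.66 to 0.01 for Tacr3 with sevoflurane. With propofol it was -0.44 to 1.35 for Tac1, -0.34 to 1.47 for Tac3, -0.65 to 0.37 for Tacr1 and -0.56 to 0.32 for Tacr3. Without a change of sign, leaving out 1 array moved Tac3 with propofol to 0.13 (without LHb Intralipos) and 1.03 (without Sol Intralipos), Tac1 with propofol to 0.11 (without MVe Intralipos) and 0.71 (without Sol Intralipos), and Tacr1 with propofol to 0.15 (without Sol propofol) and 0.49 (without MVe propofol). With sevoflurane it moved Tac3 to 0.05 (without LHb sevoflurane) and 0.72 (without Sol sevoflurane), Tacr1 to 0.03 (without LHb O2) and 0.48 (without Sol sevoflurane), and Tacr3 to 0.14 (without MVe O2) and 0.44 (without MHb O2). Tacr3 with propofol moved to 0.42 (without Sol propofol) and 0.78 (without LHb propofol), and its adjusted p lay between 0.448 and 0.887 over all settings. Leaving out 1 array leaves a region and treatment without an array, so the rest is assumed to vary alike. Region, as a term of the model, already pairs each anesthetic array with its control. The labels carry no replicate numbers for a further block, and with region within array set as a block no call changed.

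Counts over all genes depended on the setting. With the propofol and Intralipos arrays alone, and so fewer arrays, 2714 genes passed in MHb minus LHb, against 4289 with all arrays; the counts were 3233 against 5300 in Sol minus MVe, 3821 against 5820 in MHb minus Sol, 1821 against 3804 in LHb minus Sol and 2248 against 4019 in LHb minus MVe. Sevoflurane minus O2 gave 0 to 8 genes over all settings, propofol minus Intralipos 0 to 5 and the difference of both effects 0 to 4. Centring each array on its median moved the median of all genes by 0.20 in MHb minus Sol and -0.15 in Sol minus MVe. The share of calls that were higher then became 61.6% against 50.6% in MHb minus LHb, 38.8% against 54.7% in Sol minus MVe, 66.4% against 49% in MHb minus Sol and 56.4% against 43.5% in LHb minus Sol. No tachykinin call changed with that centring. Background signal limits what Tac1 in MVe and Tac3 in Sol and MVe can show.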
